A study of Mus musculus with 6 samples.

Results

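Interferons are secreted proteins that act through pairs of receptor chains. Type I interferons (Ifnb1, the Ifna genes and their relatives) bind the chains encoded by Ifnar1 and Ifnar2, interferon gamma binds Ifngr1 with Ifngr2, and the lambda interferons (Ifnl2, Ifnl3) bind Ifnlr1 with Il10rb, a chain shared with the interleukin-10 receptor. The bound receptors activate JAK kinases and STAT factors, which switch on antiviral and antigen presentation genes. Described here are 10 genes of this ligand and receptor family, 4 ligands (Ifnb1, Ifna4, Ifnl2 and Ifnl3) and 6 receptor chains, chosen by symbol from the 22105 features with an Ensembl gene identifier in the deposited table. The rule is by symbol alone and sets no expression level.

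RNA was sequenced from cultures of 4T1, a mouse mammary carcinoma cell line. The 3 libraries of one group came from cells given CM-PEG-PLGA@DOX/R848 nanoparticles for 24 h. The dose was equal to 2 µg/mL of doxorubicin (DOX, a topoisomerase II poison). The particles also carry R848, an agonist of the RNA receptor TLR7. The 3 libraries of the control group came from cells given phosphate-buffered saline (PBS) for the same time. Neither drug on its own nor an unloaded particle was analysed here, so the effects of the carrier, of DOX and of R848 cannot be told apart. Whether the replicates were grown as separate cultures is not in the labels, and p-values therefore reflect the spread between these samples alone, which may be technical.

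Values are FPKM, fragments scaled by transcript length and library size, so levels of different genes can be compared per length. Changes were tested with limma on log2(FPKM + 1) over the 10863 genes that reached 1 FPKM in 3 libraries, and called at a Benjamini-Hochberg adjusted p under 0.05. Most of the transcriptome differed: 40.5% of tested genes were called higher with nanoparticles and 46% lower (86.4% in either direction), with a median log2 fold change of -0.06. Between 13544 and 13808 genes were above 0 in each PBS library and between 18319 and 18509 in each nanoparticle library, while genes at or above 1 FPKM numbered 10596 to 10631 in all 6. The carcinoma markers Krt8 and Krt18 averaged 215 and 514 FPKM with PBS, Cdh1 averaged 18.9 FPKM and Krt19 1.20 FPKM. Epcam, another epithelial marker, was near the floor in both groups (means of 0.551 and 0.639 FPKM).

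Of the 10 genes, 5 were tested, all of them receptor chains at 1 FPKM or more in every library. Ifnar2, Il10rb, Ifnar1 and Ifngr1 fell, so 4 of 5 were called lower against 46% of all tested genes, and 0 were called higher. Ifngr2 did not pass. Ifnlr1 and the ligands Ifnb1 and Ifna4 stayed below the level tested, and Ifnl2 and Ifnl3 were listed at 0 in all 6 libraries.

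Ifnb1 encodes interferon beta, the type I interferon that many cell types make first after nucleic acid sensing. The gene (ENSMUSG00000048806) has no intron and lies at GRCm38 chromosome 4, 88522025 to 88522774, on the minus strand. Ifna4 (ENSMUSG00000070904), which encodes an early interferon alpha, lies in the same cluster at 88841861 to 88842421 on the plus strand. The 250 bases before their RefSeq starts (GRCm38.p6) are shown because the control of both genes is written in this stretch: IRF factors read repeats of the form AANNGAAA, NF-kB reads sites such as GGGAA, any base, TTCC, and TATAAA is the TATA motif. Matches to these 3 motifs on either strand are in capitals.
Ifnb1, chr4:88522795-88523044, minus strand: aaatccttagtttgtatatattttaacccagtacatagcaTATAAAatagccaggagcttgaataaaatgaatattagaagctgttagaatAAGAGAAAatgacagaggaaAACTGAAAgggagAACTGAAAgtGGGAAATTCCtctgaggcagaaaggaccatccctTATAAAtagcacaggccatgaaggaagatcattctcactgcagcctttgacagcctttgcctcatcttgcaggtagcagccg
Ifna4, chr4:88841566-88841815, plus strand: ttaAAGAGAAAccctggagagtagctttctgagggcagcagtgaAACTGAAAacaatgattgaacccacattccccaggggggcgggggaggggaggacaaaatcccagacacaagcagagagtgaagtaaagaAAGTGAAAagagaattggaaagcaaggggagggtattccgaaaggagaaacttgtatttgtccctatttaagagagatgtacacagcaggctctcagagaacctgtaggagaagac

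Each of these windows held 3 matches to AANNGAAA, a motif found at least once in 21.3% of 32851 RefSeq promoter windows of the same length. The NF-kB motif in Ifnb1 starts 116 bases before the RefSeq start, next to the IRF motif at 126 bases. The second TATAAA starts 82 bases before the RefSeq start, and where transcription begins was not tested. The NF-kB motif was found in 0.283% of all windows and not in the Ifna4 window. TATAAA occurred at 2 places in the Ifnb1 window and in 12.4% of all windows. A match is a description of the letters and does not show that a factor binds.

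The values of Ifnb1 were 0, 0.221 and 0.156 FPKM in PBS libraries 1 to 3 and at 1.23, 0.518 and 0.731 FPKM in nanoparticle libraries 1 to 3. All nanoparticle libraries lay above all PBS libraries, and 1 of them reached 1 FPKM. An exact two-sided permutation test of the FPKM values gave p = 0.1, the smallest that 3 against 3 libraries allow. Ifna4 stood at 0, 0 and 0.00801 FPKM with PBS and at 0.108, 0.373 and 0.436 FPKM with nanoparticles. Again the groups did not overlap, and the exact permutation test gave p = 0.1. Without the filter on low values, limma called both higher, Ifnb1 with a log2 fold change of 0.68 (adjusted p = 0.00454) and Ifna4 with 0.37 (adjusted p = 0.00919). In that fit 42% of all genes were called higher and 26% lower.

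Many low genes moved the same way. Of 9378 genes under 1 FPKM in every PBS library and above 0 in at least 1 library, 50.9% had all nanoparticle libraries above all PBS libraries, and 2.88% had them all below. This set is limited on the PBS side only. It holds 5347 genes at 0 in every PBS library, which could not be lower, so these shares are not an even comparison of directions. The separation of Ifnb1 and Ifna4 was therefore shared with a large part of the silent genome, and what it owes to that broad rise was not tested. By level, Ifnb1 stood nearer the top of these low genes: 4.13% of them had a nanoparticle mean as high as its 0.827 ± 0.366 FPKM (SD, n = 3). For Ifna4, at 0.306 ± 0.174 FPKM, the share was 14.4%.

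Ifnl2 (chromosome 7, 28508836 to 28510455) and Ifnl3 (28522836 to 28524322) were at 0 in every library, like 1981 genes of the table. Their transcripts in GENCODE M21 are identical at 97.1% of 582 aligned bases, so reads from them could fit both genes, and no source used here tells how the authors treated such reads. Both genes also lie within introns of Samd4b. The depth of the libraries is unknown, so no upper limit can be set for a gene listed at 0.

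The wider ligand family showed the same low levels. All 21 interferon ligand genes listed were in the table, and none was tested. In 17 the PBS libraries were all at 0, and 13 of these (76.5%) were above 0 in at least 1 nanoparticle library, against 73% of all genes at 0 with PBS. A smaller share, 4 of 17 (23.5%), was above 0 in all 3 nanoparticle libraries, against 35.9% of all genes at 0 with PBS. Of the 17 ligands above 0 in any library, 6 had nanoparticle libraries all above the PBS libraries (35.3%, against 50.9% of low genes): Ifnb1, Ifna4, Ifna5, Ifna6, Ifna12 and Ifnk. These shares were near or below those of other low genes.

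Ifnk, which encodes interferon kappa, an epithelial type I interferon, had the level nearest to Ifnb1. It was at 0 in the PBS libraries and at 0.349, 0.597 and 0.762 FPKM in the nanoparticle libraries, a mean reached by 6.7% of low genes. Ifnz was the only ligand with the opposite order, with means of 0.2 ± 0.0126 FPKM for PBS and 0.105 ± 0.0454 FPKM for nanoparticles. Ifng, which encodes interferon gamma, a product of T and NK cells, was at 0 with PBS and at 0.115, 0.133 and 0 FPKM with nanoparticles. Ifnk, Ifnz and Ifng are shown with their values because they were the nearest to Ifnb1 in level, the only one lower with nanoparticles and the only type II ligand. The interferon alpha genes are close copies: the Ifna4 transcript is identical to those of 13 others at 86.9% to 90.8% of aligned bases, so single values are uncertain.

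The FPKM of the 18 type I genes were therefore also summed. Besides the alpha copies this sum holds Ifnb1, Ifne, Ifnk and Ifnz, and the 0.206 of PBS library 1 was all Ifnz. The sum was 0.206, 0.407 and 0.48 with PBS and 2.35, 2.96 and 2.66 with nanoparticles (exact permutation p = 0.1, the smallest possible). The groups did not overlap, and no sum of other low genes was set beside them. The 14 alpha genes with Ifnab summed to 0, 0 and 0.00801 FPKM with PBS and to 0.574, 1.64 and 0.971 FPKM with nanoparticles.

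**Figure D1:**
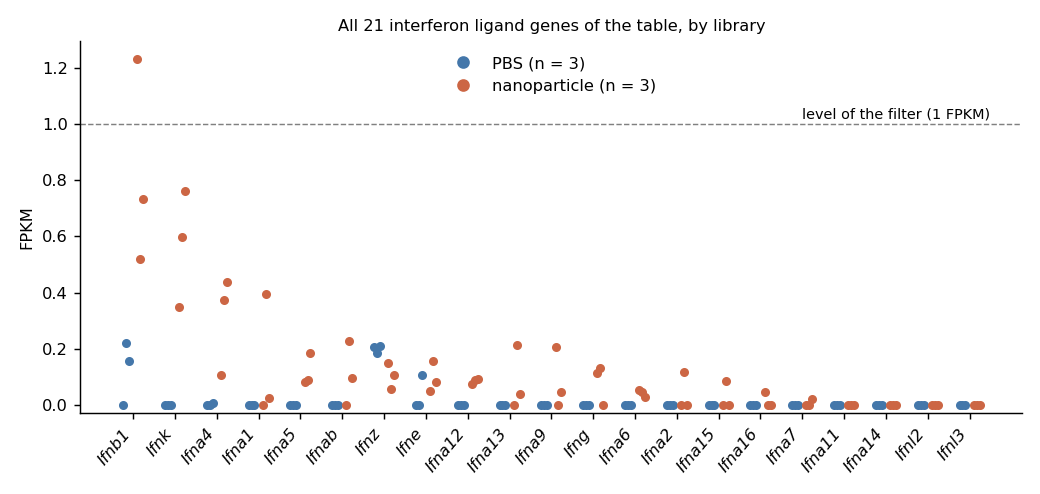
FPKM of all 21 interferon ligand genes in each of the 3 PBS and 3 nanoparticle libraries, ordered by nanoparticle mean; the dashed line marks 1 FPKM, the level of the filter. Ifnb1, Ifnk and Ifna4 lie highest with nanoparticles, and only 1 library of Ifnb1, at 1.23 FPKM, is above the line.

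Plasmacytoid dendritic cells and macrophages are strong interferon producers, so their markers are given beside the ligands. In bulk RNA, fewer cells of a type and less RNA per cell cannot be told apart. All but 1 of 8 plasmacytoid dendritic cell markers were below 1 FPKM throughout, and the defining marker Siglech had overlapping groups with means of 0.00953 and 0.0765 FPKM. Ccr9 was the 1 marker of the list with all nanoparticle libraries above all PBS libraries, with means of 0.00724 and 0.143 FPKM. The exception, Runx2, which other cells also express, fell by 1.51 on the log2 scale, and with it the summed FPKM of the list went from a range of 10.7 to 11.6 with PBS to 3.67 to 4.14 with nanoparticles. Of 10 macrophage and myeloid markers, 9 had all nanoparticle libraries above all PBS libraries, where 50.9% of low genes did. Cd68, 1 of the 9, was at 10.6 to 14.1 FPKM with PBS and is not among those low genes. The summed FPKM of the list ranged from 10.8 to 14.3 with PBS and from 37.7 to 41.2 with nanoparticles, most of it Cd68. Ptprc, Adgre1, Fcgr1 and Tyrobp were at 0 in all PBS libraries and averaged 0.527, 0.0633, 0.286 and 0.13 FPKM with nanoparticles, while Csf1r and Mpeg1 averaged 1.45 and 1.77 FPKM. T, B and NK cell markers, 8 in all, summed to at most 0.138 FPKM in a PBS library and 0.839 FPKM in a nanoparticle library. The 6 fibroblast and endothelial markers summed to 29.1 to 29.4 FPKM with PBS and 6.62 to 7.79 FPKM with nanoparticles, most of it Pdgfra and Cdh5, which both fell. The other 4, Col1a1, Dcn, Lum and Pecam1, were under 1 FPKM in every library, and all had their nanoparticle libraries above their PBS libraries. The part of such cells in the ligand values was not tested.

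Apart from Ifnlr1, the receptor chains were far more abundant than the ligands. Ifnar1 (ENSMUSG00000022967, chromosome 16, 91485238 to 91507441) encodes the chain that binds the kinase TYK2. It measured 26.0, 26.6 and 27.9 FPKM with PBS and 20.1, 20.2 and 21.2 FPKM with nanoparticles. The groups did not overlap, in data where 86.4% of all tested genes were called in either direction. Nanoparticle libraries held 0.763 of the PBS level on average (limma, log2 fold change -0.37 with a standard error of 0.040, adjusted p = 1.24e-05).

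Ifnar2 (ENSMUSG00000022971, chromosome 16, 91372783 to 91405589) encodes the high-affinity chain, which binds JAK1. It was the most abundant chain with PBS, at 30.0, 33.6 and 34.9 FPKM, and measured 18.5, 16.1 and 16.9 FPKM with nanoparticles. Its fall had the largest size among the chains: 0.523 of the PBS level was left (limma, log2 fold change -0.90 with a standard error of 0.066, adjusted p = 9.46e-07). The gene makes membrane-bound and soluble forms, which a value per gene does not separate.

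Ifngr1 (ENSMUSG00000020009, chromosome 10, 19591949 to 19610229), the ligand-binding chain of the interferon gamma receptor, measured 15.3, 14.7 and 13.98 FPKM with PBS and 11.4, 10.9 and 11.5 FPKM with nanoparticles. The groups did not overlap, and its fall was close in size to that of Ifnar1 (limma, log2 fold change -0.36 with a standard error of 0.047, adjusted p = 5.97e-05). Ifngr2 (ENSMUSG00000022965, chromosome 16, 91547072 to 91565623), the signalling chain, was at 12.4, 12.001 and 11.5 FPKM with PBS and at 13.1, 12.6 and 13.0 FPKM with nanoparticles. Every nanoparticle library was above every PBS library, yet the difference did not pass (log2 fold change 0.10, 95% confidence interval -0.0011 to 0.20, adjusted p = 0.0599, limma). It passed without PBS library 1 (adjusted p = 0.047) and with median-of-ratios scaling (log2 fold change 0.16, adjusted p = 0.00816), and its sign turned when values were rescaled to TPM (-0.046, adjusted p = 0.377). Rescaling to TPM lowered the median log2 fold change of all tested genes by 0.15, and relative to that median Ifngr2 stood at 0.16 on each of the 3 scales.

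Il10rb (ENSMUSG00000022969, chromosome 16, 91406164 to 91425834), the chain shared by the receptors of interferon lambda, interleukin-10 and interleukin-22, went from 16.4, 17.2 and 18.0 FPKM to 9.82, 9.67 and 9.22 FPKM. The groups did not overlap, and 0.557 of the PBS level was left (limma, log2 fold change -0.78 with a standard error of 0.048, adjusted p = 1.74e-07). Ifnlr1 (chromosome 4, 135686287 to 135708181), the chain specific to interferon lambda, was at 0.265, 0.405 and 0.202 FPKM with PBS and at 0.215, 0.214 and 0.203 FPKM with nanoparticles. Its groups overlapped (exact permutation p = 0.4).

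**Figure D2:**
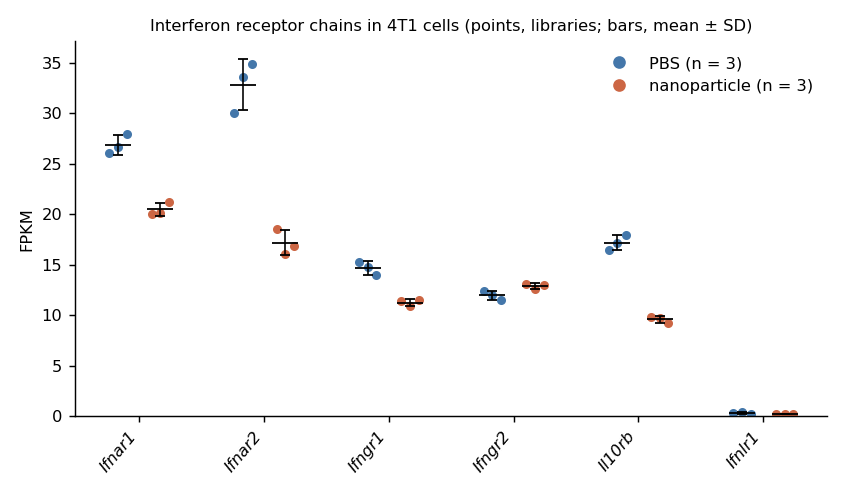
FPKM of the 6 receptor chains by library, with the mean and SD of each group of 3. Ifnar1, Ifnar2, Ifngr1 and Il10rb are lower in every nanoparticle library than in any PBS library, Ifngr2 is slightly higher, and Ifnlr1 lies under 0.5 FPKM throughout.

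The order of the chains by FPKM changed with treatment. With PBS it ran Ifnar2, Ifnar1, Il10rb, Ifngr1, Ifngr2 and Ifnlr1 from the highest level to the lowest, and with nanoparticles Ifnar1, Ifnar2, Ifngr2, Ifngr1, Il10rb and Ifnlr1. In both groups no neighbours in the order overlapped, and each order held in 3 of 3 libraries.

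The paired chains were therefore compared within libraries, a ratio that needs no scaling between libraries. The ratio of Ifnar1 to Ifnar2 FPKM was 0.868, 0.794 and 0.799 with PBS and 1.08, 1.25 and 1.26 with nanoparticles. On the log2(FPKM + 1) scale the ratio differed by 0.52 between the groups. The ratio of Ifngr1 to Ifngr2 FPKM was 1.24, 1.23 and 1.22 with PBS and 0.873, 0.864 and 0.885 with nanoparticles, a difference of -0.45 on the log2 scale. By FPKM both pairs thus crossed a ratio of 1 in all libraries. Ifnar2 was above Ifnar1 with PBS and below it with nanoparticles, and Ifngr1 stood likewise to Ifngr2. Where a ratio lies against 1 depends on the gene lengths and read assignment used, which are not known here. Ifnar2 shares 9.46% of its exonic bases with the locus Gm21970, and its pair was at only 1.08 in nanoparticle library 1.

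The third pair had little to compare. The ratio of Ifnlr1 to Il10rb FPKM was 0.0161, 0.0236 and 0.0112 with PBS and 0.0219, 0.0221 and 0.0221 with nanoparticles, and these ratios overlapped. On the log2(FPKM + 1) scale the groups of this pair separated by 0.69, with the pseudocount above every Ifnlr1 value. Each of the 3 pairs gave an exact permutation p of 0.1, the smallest possible (0.1 after Benjamini-Hochberg adjustment over the 3 pairs).

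**Figure D3:**
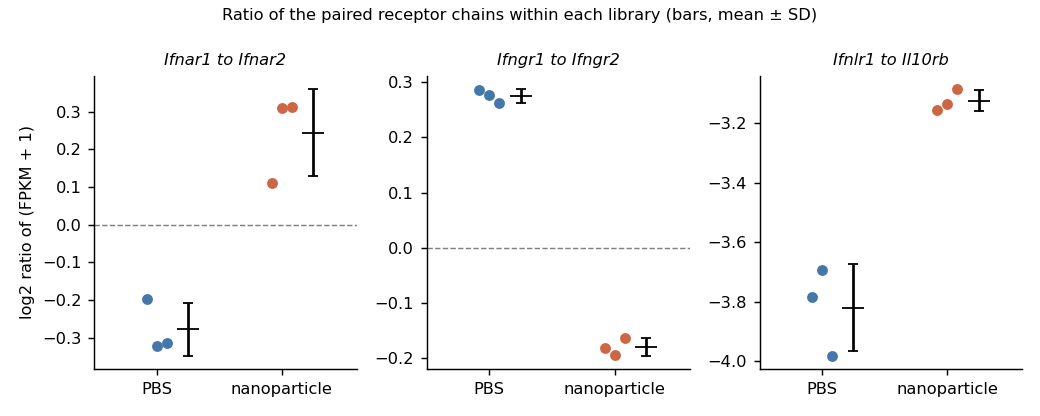
The log2 ratio of (FPKM + 1) of the paired receptor chains in each library, with the mean and SD of each group; the dashed line marks equal levels. The Ifnar1 to Ifnar2 ratio moves from a mean of -0.28 to 0.24 and the Ifngr1 to Ifngr2 ratio from 0.27 to -0.18, while Ifnlr1 stays far below Il10rb.

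Of the 6 chains, Ifnar2, Il10rb, Ifnar1 and Ifngr2 lie side by side on chromosome 16 in that order and on 1 strand. Along this cluster the log2 fold changes were -0.90, -0.78, -0.37 and 0.10. The next gene, Tmem50b, rose (0.37), as did Gart, an enzyme of purine synthesis, from 29.0 ± 0.704 to 61.4 ± 1.51 FPKM (log2 fold change 1.06), and Donson (0.81). Dnajc28 fell by 0.51 on the log2 scale, Son did not pass (0.06), and Cryzl1 fell from 63.9 ± 3.97 to 15.0 ± 0.763 FPKM (log2 fold change -2.02). Atp5po rose by 0.83 and Itsn1 fell by 1.27 on the log2 scale. On the other side of the cluster, before Ifnar2, Synj1 rose by 0.15 and Paxbp1 fell by 0.42. Of the 10 tested genes fixed as neighbours of the cluster, 5 rose, 4 fell and 1 did not pass, with a median log2 fold change of 0.11. These shares were near those of all tested genes (40.5% higher, 46% lower). Dnajc28 was under 1 FPKM in all nanoparticle libraries, so that only a fall could bring it into the test, and without it 5 rose and 3 fell, with a median of 0.15.

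**Figure D4:**
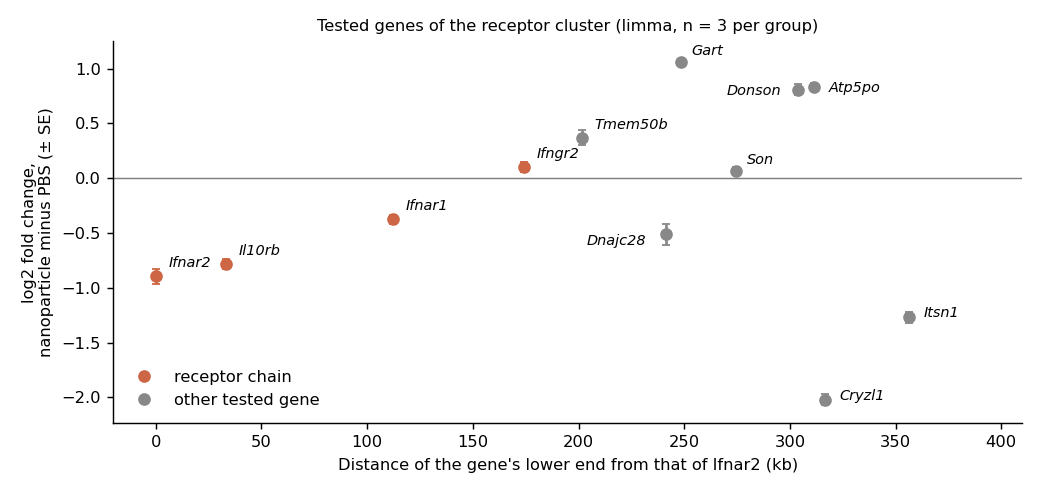
Log2 fold change with its standard error for the 4 chains of the cluster and the tested genes on its Ifngr2 side. Genes are placed by the distance of their lower end from that of Ifnar2 in kb. Synj1 and Paxbp1, on the Ifnar2 side, are not drawn. The 4 chains run from -0.90 for Ifnar2 to 0.10 for Ifngr2, and the genes beyond them range from -2.02 for Cryzl1 to 1.06 for Gart.

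Ifnar2 and Il10rb share exons with the readthrough locus Gm21970, over 9.46% and 14.9% of their exonic bases. Gm21970 was listed at 0 in all 6 libraries, and reads of the shared exons cannot be assigned with certainty. Direction went with genomic span in these data (81.1% of genes over 51.7 kb were lower), so spans are given. Ifnar2 covers 32.8 kb and the other tested chains 18.3 to 22.2 kb. Of the tested genes of 10.2 to 23.2 kb, the range that holds Ifnar1, Ifngr1, Ifngr2 and Il10rb, 53.6% were higher and 30.1% lower, with a median log2 fold change of 0.20. In the range with Ifnar2 (23.2 to 51.7 kb), 37.4% were higher and 47.1% lower. Ifnar1, Ifngr1 and Il10rb thus fell in a span range in which more genes rose than fell, and the part of span in the values was not tested.

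The upstream windows of Ifnar2, the chain with the largest fall, and Ifngr2, the chain that did not pass, are shown for the contrast within the cluster. Capitals mark the GC box GGGCGG on either strand, a motif read by Sp1-type factors and found in 32.7% of all windows.
Ifnar2, chr16:91372533-91372782, plus strand: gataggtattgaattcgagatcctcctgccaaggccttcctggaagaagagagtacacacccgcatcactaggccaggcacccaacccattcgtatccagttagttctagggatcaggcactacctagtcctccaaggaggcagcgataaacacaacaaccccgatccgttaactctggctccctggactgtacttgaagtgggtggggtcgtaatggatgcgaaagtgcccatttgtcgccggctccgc
Ifngr2, chr16:91546809-91547058, plus strand: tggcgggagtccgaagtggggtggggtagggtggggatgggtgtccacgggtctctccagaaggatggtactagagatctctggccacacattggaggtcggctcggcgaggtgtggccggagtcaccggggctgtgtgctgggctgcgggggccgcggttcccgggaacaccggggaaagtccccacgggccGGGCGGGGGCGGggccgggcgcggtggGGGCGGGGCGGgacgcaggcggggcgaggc

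The Ifngr2 window held 25 CpG dinucleotides and 4 GC boxes, and the Ifnar2 window held 11 CpG and no GC box. The windows of Ifnar1 and Ifngr1, which were also called lower, held 19 and 11 CpG, with 2 GC boxes each. That of Ifnlr1 held 14 CpG and 1 GC box. A relation of these contents to the changes was not tested. For comparison, the median over all windows was 6 CpG, and the Ifnb1 and Ifna4 windows held 1 and 2. None of the 5 receptor windows held a match to AANNGAAA. The STAT motif TTCNNNGAA, present in 7.02% of all windows, occurred once in the Ifnar2 window, starting 214 bases before the gene's start, and in no other window of the 9 genes. Sequences were found in the RefSeq table for 9 of the 10 genes, all but Il10rb.

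Among the other chains of the same protein family, only F3 was tested. F3 encodes tissue factor, the starter of blood coagulation, and its level rose from 8.43 ± 0.193 to 17.3 ± 1.03 FPKM (limma, log2 fold change 0.96, adjusted p = 6.09e-08). The remaining 5 chains stayed under 1 FPKM in every library. Il10ra, the partner of Il10rb in the interleukin-10 receptor, was at 0 with PBS and at 0.143 ± 0.0488 FPKM with nanoparticles, and Il22ra1, the partner in the interleukin-22 receptor, averaged 0.0349 and 0.067 FPKM. Both partner chains were thus under 1 FPKM, whereas Il10rb itself was at 9.22 FPKM or more.

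Of the 6 signalling genes reported from behind the receptors, 2 rose and 4 fell, where 40.5% of all tested genes rose and 46% fell. The 2 that rose encode transcription factor subunits that act after type I and III signalling: Stat2 went from 8.996 ± 0.137 to 65.5 ± 0.842 FPKM and Irf9 from 22.2 ± 0.313 to 48.8 ± 1.06 FPKM. All 3 JAK kinases of these receptors fell: Jak1 from 37.0 ± 0.851 to 15.6 ± 0.44 FPKM, Jak2 from 48.7 ± 0.439 to 15.2 ± 0.741 FPKM and Tyk2 from 14.7 ± 0.52 to 5.75 ± 0.184 FPKM. Stat3 fell by 0.29 on the log2 scale. Jak1, Jak2 and Stat3 span 113, 61.3 and 54.4 kb, in the range where 81.1% of tested genes were lower. Tyk2 spans 27.2 kb, and Stat2 and Irf9, which rose, 22.3 and 6.46 kb. The part of span in these values was not tested.

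Of 12 tested genes that restrain the receptors, 6 rose, 5 fell and 1 did not pass (Ptpn2, log2 fold change -0.08), with a median log2 fold change of 0.03. These counts were near the shares over all tested genes, 40.5% higher and 46% lower. Usp18, which binds the IFNAR2 chain and blocks further signalling, went from 5.04 ± 0.206 to 116 ± 2.86 FPKM, and Socs1, an inhibitor of JAK kinases, from 0.914 ± 0.109 to 6.76 ± 0.541 FPKM. With PBS Socs1 stayed below the filter of 1 FPKM in all 3 libraries, and only a higher level could pass. Without it 5 rose and 5 fell, with a median of -0.080. Fbxw11 and Btrc encode paralogous ubiquitin ligase subunits of the kind that targets IFNAR1 for breakdown. They went from 39.1 ± 0.564 to 12.5 ± 0.402 FPKM and from 9.66 ± 0.463 to 2.45 ± 0.633 FPKM. Fbxw11 and Btrc span 104 and 166 kb. Csnk1a1, Pias1 and Ptpn6 fell by 0.83, 0.99 and 0.54 on the log2 scale and span 34.8, 110 and 18.0 kb. Ptpn11, which rose by 0.21, spans 60.9 kb, and Ptpn2, which did not pass, 59.1 kb. The part of span in these values was not tested.

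Upstream of the ligand genes, 12 of 22 tested genes of interferon induction rose, 9 fell and 1 did not pass (Irf3, log2 fold change 0.08), where 40.5% of all tested genes rose and 46% fell. Irf7, which drives transcription of the alpha genes, rose from 9.75 ± 0.181 to 239 ± 3.06 FPKM, and Jun, a part of the factor complex on the Ifnb1 promoter, from 14.2 ± 0.632 to 160 ± 4.48 FPKM. Of the NF-kB, ATF2 and HMGA1 parts of that complex, Rela rose by 1.00, Nfkb1 fell by 1.51, Atf2 by 1.25 and the architectural protein gene Hmga1 by 0.56 on the log2 scale. Nfkb1 and Atf2 span 107 and 76.1 kb, in the range where 81.1% of tested genes were lower. Hmga1, which also fell, spans 7.18 kb, and Rela, which rose, 10.6 kb. The part of span in these values was not tested. Sensors of RNA rose, with log2 fold changes of 1.75 for Rigi, 1.36 for Ifih1 and 1.91 for Tlr3. The adaptor gene Mavs fell by 1.01 and the kinase genes Tbk1 and Ikbke by 0.44 and 0.81 on the log2 scale. Tlr7, a receptor of R848, had means of 0.161 ± 0.0376 and 0.179 ± 0.0172 FPKM in the PBS and nanoparticle groups, which overlapped, and Tlr8 had means of 0.00502 and 0.114 FPKM. Neither was tested.

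Targets of the receptors rose widely. Of 20 tested type I and III interferon targets, 19 rose and 0 fell, with a median log2 fold change of 3.19. The remaining target, Ifit2, had a log2 fold change of 0.49 that missed the threshold (limma, adjusted p = 0.318). Oasl2, Zbp1 and Bst2 had the smallest adjusted p, with log2 fold changes of 3.32, 4.43 and 2.98. Of 15 tested interferon gamma targets, many of which also respond to type I interferon, 14 rose and 1 fell (Nlrc5, by 0.17), with a median of 1.36. Ifit3b in the first list and Cxcl9, Gbp5 and Socs1 in the second were below 1 FPKM in all PBS libraries, so that only a rise could bring them into the test; without them 18 of 19 and 11 of 12 rose, with medians of 3.14 and 1.33. Gbp3, a guanylate-binding protein gene, rose from 4.18 ± 0.185 to 72.6 ± 0.481 FPKM, Gbp2 from 5.44 ± 0.288 to 62.5 ± 2.06 FPKM and Gbp7 by 2.15 on the log2 scale. Ciita, the MHC class II transactivator gene that interferon gamma strongly induces, was under the level tested in both groups. It was at 0.0288 ± 0.0166 FPKM for PBS and 0.0911 ± 0.0129 FPKM for nanoparticles, with no overlap. Of genes under 1 FPKM in every PBS library and above 0 in at least 1 library, 50.9% were separated in the same direction. Over all tested genes, 40.5% rose and the median was -0.06.

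**Figure D5:**
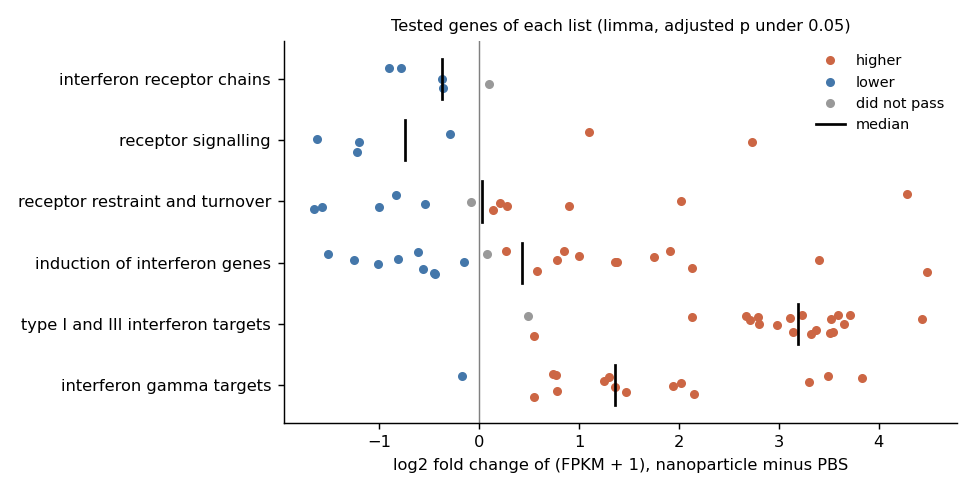
Log2 fold change of (FPKM + 1) for every tested gene of 6 lists ordered around the receptor, coloured by the limma call, with the median of each list. Receptor chains sit at or below 0 apart from Ifngr2 at 0.10, signalling genes split into 2 higher and 4 lower, and interferon targets lie mostly to the right, with medians of 3.19 and 1.36.

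The genes whose pattern over the 6 libraries was nearest to each chain were found by the Euclidean distance between log2(FPKM + 1) values centred on each gene's mean. They were Ctdnep1 and Fads3 for Ifnar1 (distances 0.025 and 0.033), Gsap and Rhot1 for Ifnar2 (0.080 and 0.10), Fam76a and Phf7 for Ifngr1 (0.044 and 0.059), and Map3k7 and Stam2 for Ifngr2 (0.036 and 0.048). For Il10rb they were Stard9 (0.047) and Ikbke (0.052). With 2 groups of 3 libraries, such likeness mainly reflects an equal fold change between the groups.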

How the data were processed

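The authors deposited 1 table with a column per library (3 PBS, 3 nanoparticle) and FPKM values; the header does not name the unit, which was inferred from the values (not whole numbers, sums of 421544 to 472870). The tools named, per the submitters' processing notes, are STAR with featureCounts, and the builds GRCm38 and mm10; no source used here gives their versions, roles or annotation. Low values showed no steps of 1 read (at most 1.77% of within-group ratios in a 1% bin), so depth is unknown. The 701 features without a gene identifier were not tested.

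Genes with at least 1 FPKM in 3 libraries were fitted with limma 3.58.1 (R 4.3.3, trend and robust) on log2(FPKM + 1), a scale that understates changes of low genes; the script was tested on simulated data. Single values were compared by exact two-sided permutation tests (scipy 1.17.1). Positions are from GENCODE M21 (GRCm38), sequences from RefSeq (GRCm38.p6). The 10 genes and the gene lists were chosen with earlier results of these data known. A gene of the signalling list is not reported here. Named were all 10 genes, in each list the 3 members with the smallest adjusted p and sides of a count with 5 or fewer, and the 2 genes most like each tested chain; other genes were named after their values were seen. Alternatives tried were another pseudocount (0.1), filters, threshold and scaling, a replicate block, and each library left out.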

Additional observations from a re-analysis of the deposited data

How the results depend on the processing

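Ifnar1, Ifnar2, Ifngr1 and Il10rb were called lower under all 13 alternatives, and the count of the 10 genes called lower stayed at 4. The count called higher, 0 as reported, was 2 with no filter on low values and 2 with the filter at 0.1 FPKM (Ifnb1 and Ifna4 in both), 1 with median-of-ratios scaling (Ifngr2), and 0 to 1 when single libraries were left out (Ifngr2 without PBS library 1). The log2 fold change of Ifngr2 was -0.046 on the TPM scale. With no filter, 8445 genes were called higher instead of 4395. The replicate block left the counts at 0 higher and 4 lower among the 10 genes and gave 4389 higher and 4982 lower genes in all; same-numbered libraries did not deviate together (r = -0.014, -0.043 and 0.041), so the numbers were not taken as pairs. The differences in chain ratio and in summed type I FPKM kept their sign under every alternative run, in a design whose exact test cannot go below 0.1. Depth is unknown, so the counting error of values under 1 FPKM could not be estimated.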
